A study of Mus musculus with 4 samples.

Results

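The cadherin superfamily is a large family of calcium-dependent adhesion proteins, described here in primary mouse mesenchymal stromal cells (MSCs) after knockdown of Islr. This gene encodes Meflin, an immunoglobulin-domain protein of stromal cells. Its members were taken as every gene whose RefSeq symbol is Cdh with a number, Cdhr, Pcdh, Dchs, Fat1 to Fat4 or Celsr1 to Celsr3, and whose RefSeq accession is carried by a probe of the array. That gave 82 genes with 105 probes, out of 21154 genes with a named probe and out of 107 superfamily genes in the RefSeq table. Primary cultured MSCs at passage 5 were transduced with retroviral short hairpin RNAs. Islr knockdown was represented by 3 hairpins of different target sequence in Islr on 1 array each, called hairpins 1, 2 and 3 after their label numbers. The control was 1 array of MSCs with a control hairpin, so every culture carried a retroviral hairpin. Total RNA was labelled with Cy3 and hybridised to one-colour Agilent arrays. The strain, sex and age of the mice are not in the labels, nor is it stated that the cultures were separate preparations. Thus n = 3 counts hairpins, and p-values measure only the spread between these arrays, which may be technical.

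Classical cadherins (types I and II) hold neighbouring cells together at adherens junctions, where their tails bind catenins that connect to actin. Protocadherins lack the catenin-binding tail and mainly serve cell recognition and sorting. Most of them lie in the alpha, beta and gamma clusters, gene arrays from which single cells choose combinations of isoforms and which are best known from neurons. Fat, Dachsous and Celsr are giant cadherins of growth control and planar cell polarity, the alignment of cells within a tissue plane. Stromal cells are known for N-cadherin (Cdh2) and cadherin-11 (Cdh11) and for the absence of E-cadherin (Cdh1).

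Each value below is a processed signal, the scanner software's background-subtracted brightness on a linear scale with no unit. Differences are log2, hairpin minus control, after each array was scaled to its 75th percentile, and a mean ± SD is over the 3 hairpins. The 75th percentile was 415, 435 and 433 on hairpins 1 to 3 and 442 on the control array. Between 49.4% and 53.8% of 59305 features were well above background on a hairpin array, against 50.9% on the control array, by the software's own call. No feature was saturated, and the number of arrays limits the precision. All 3 differences of a gene share the 1 control array, so noise in that array moves them together. Signals of different genes come from different probes and are not compared with each other.

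Islr itself had signals of 11, 70.5 and 3.44 on hairpins 1 to 3, against 454 on the control array. It was not above background on hairpins 1 and 3. Against the lowest signal called above background on each array it was at least 20.5-fold lower with hairpin 1 and at least 29.6-fold lower with hairpin 3, and it was 6.33-fold lower with hairpin 2. Probes can fail the call at a higher signal than that lowest one, so a fold given as "at least" can be too high. Over the 3 hairpins its mean difference was -4.98 ± 2.19, with a limma adjusted p of 0.964.

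In MSCs with Islr hairpins, the protocadherin beta genes that were measurable stood below the control together. All 11 that were measurable on every array lay below it on all 3 hairpins (background 22.7%), and none passed limma's test. This count was not planned in advance, and all of its differences share the 1 control array. N-cadherin lay above the control on all 3 hairpins and cadherin-11 below it. Pcdh19 and T-cadherin (Cdh13) had mean differences near 0, while Fat1, Dchs1 and Celsr1 differed between hairpins. Of the whole superfamily, 1 gene passed the test across all genes, Pcdh11x, which was lower. It entered that test through the control array alone, was at background on all 3 hairpins and lost its call in several alternatives.

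Of the 82 genes, 46 were above background on at least 1 array by at least 1 probe and 36 were on none. The test kept 42, those called above background with the control hairpin or with each of the 3 Islr hairpins, and 35 of these were above background on all 4 arrays. With limma, 1 of the 42 was lower at an adjusted p under 0.05 (background 0.346%, 47 of 13567 genes), and 0 were higher (background 0.0%). At an unadjusted p under 0.05, 7 members were lower (Pcdh11x, Cdhr1, Pcdhb5, Pcdhb7, Pcdhb17, Pcdhb18 and Pcdhb20) and 0 higher, against 449 lower (3.31%) and 206 higher (1.52%) genes in all. At least 2-fold on all 3 hairpins, 1 member was lower (background 1.69%) and 0 were higher (background 0.236%). The 1 member was Pcdh11x in both counts.

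On direction alone, 25 of the 42 tested members lay below the control on all 3 hairpins (background 24.6%) and 5 lay above it on all 3 (background 27.6%), with 12 on both sides. Pcdh11x, Pcdhb5 and Pcdhb14 were kept through the control array only and so had to lie below it. Over the 35 members above background on all 4 arrays, 20 lay below the control on all 3 hairpins (background 22.7%), 5 lay above (background 28.8%) and 10 were on both sides. The median of their mean differences was -0.33, against 0.02 over all genes measured on all 4 arrays. Without the 11 beta genes the count was 9 of 24 below and the median was -0.23.

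The number of members past 2-fold differed between hairpins. On hairpin 1, 2 tested members were at least 2-fold below the control (background 3.99%) and 0 above (background 1.46%). On hairpin 2 it was 9 below (background 4.1%) and 1 above (background 1.88%). On hairpin 3 it was 12 below (background 5.45%) and 0 above (background 3.17%). The beta genes made up 0, 7 and 9 of the members below on hairpins 1, 2 and 3. Some of these members were not above background on the hairpin, or were kept through the control array only. Over the members above background on all 4 arrays, 1, 6 and 7 were at least 2-fold below on hairpins 1, 2 and 3. The beta genes made up 0, 6 and 6 of those. For all genes measured on all 4 arrays the share past 2-fold was not counted, so these last counts stand without a background.

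**Figure D1:**
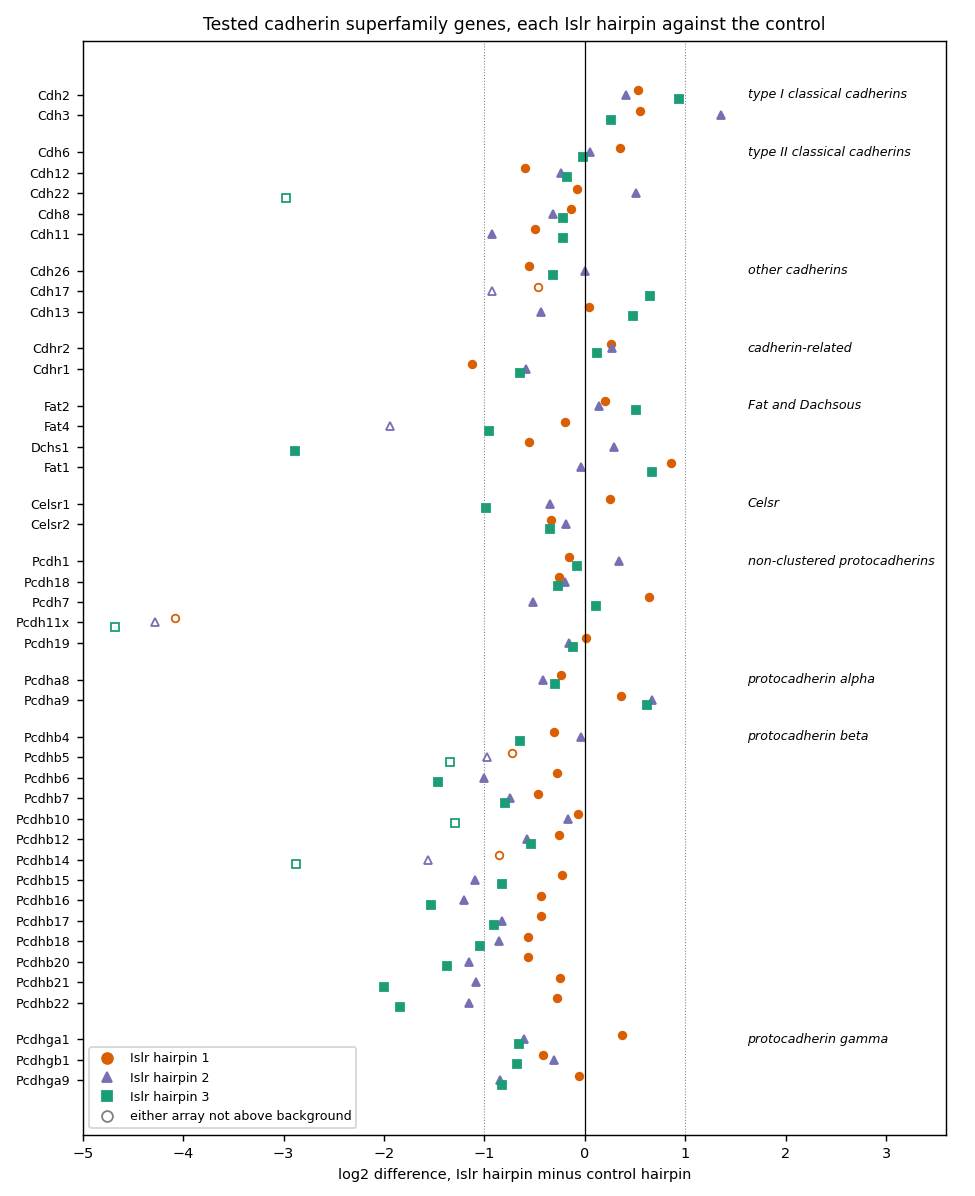
Log2 difference (x axis, Islr hairpin minus control hairpin, 75th percentile scaled) of the 42 tested superfamily genes (y axis, by subfamily) for hairpin 1 (orange circles), hairpin 2 (violet triangles) and hairpin 3 (green squares). Open symbols mark a pair in which an array was not above background, and dotted lines mark 2-fold. All 3 symbols lie left of 0 for 25 genes, among them all 14 tested protocadherin beta genes. Of these 25, Pcdh11x, Pcdhb5 and Pcdhb14 were kept through the control array only and so had to lie there.

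Among the 5 type I classical cadherins, 2 were measured on all 4 arrays, Cdh2 and Cdh3, and both lay above the control on all 3 hairpins. Cdh2, or N-cadherin, the classical cadherin of mesenchymal and neural cells, had signals of 3978, 3842 and 5492 on hairpins 1 to 3, against 2931 on the control array. Every hairpin array exceeded the control, with hairpin 3 highest and hairpins 1 and 2 close together. Its differences were 0.53, 0.41 and 0.94, with a mean of 0.63 ± 0.27 and a limma adjusted p of 0.964. Its second probe read 2927, 2753 and 3720 on hairpins 1 to 3, against 2290 on the control array, in the same order.

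Cdh3, or P-cadherin, an epithelial cadherin, had signals of 75.9, 139 and 65.2 on hairpins 1 to 3, against 55.4 on the control array, and a mean difference of 0.72 ± 0.57 (limma adjusted p 0.964). All 3 hairpins lay above the control, hairpin 2 farthest. Of 9 epithelial markers 5 were above background on at least 1 array, with summed signals over the list of 641, 678 and 1435 on hairpins 1 to 3, against 421 on the control array. Krt19, a keratin gene, made up the difference, with 357, 359 and 1169 on hairpins 1 to 3, against 135 on the control array. The other 4 tested markers, Krt18, Cldn4, Cldn7 and Esrp1, lay on both sides of the control. Krt18, Cldn7 and Esrp1 were above background on 4 arrays and Cldn4 on 3. The remaining markers Cdh1, Epcam, Krt8 and Grhl2 were not above background on any array. The part of these markers in the Cdh3 result was not tested.

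Cdh1, or E-cadherin, gave signals of 6.77, 5.82 and 7.25 on hairpins 1 to 3, against 7.10 on the control array, all below the call for background. Cdh4, the R-cadherin of retina and kidney, was also not above background on any array. Cdh15, the M-cadherin of muscle, was called above background on hairpin 3 only. It read 9.23, 15.8 and 17.8 on hairpins 1 to 3, against 21.6 on the control array, where the call was not met. Its control signal exceeded the called one, so the call gives no direction here.

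Type II cadherins counted 13 genes, of which 4 were measured on all 4 arrays (Cdh6, Cdh8, Cdh11 and Cdh12) and 7 on none. Cdh11, also called OB-cadherin, joins stromal cells and osteoblasts. It had signals of 2187, 1706 and 2771 on hairpins 1 to 3, against 3287 on the control array. The control was highest and hairpin 2 lowest, and the hairpins spread over a wider range than the gap between hairpin 3 and the control. The mean difference was -0.54 ± 0.36 with a limma adjusted p of 0.964, and a second probe read 430, 312 and 457 on hairpins 1 to 3, against 565 on the control array.

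Cdh2 and Cdh11 thus lay on opposite sides of the control on all 3 hairpins with both of their probes, without either passing the test. Cdh8 and Cdh12, type II cadherins known mainly from the nervous system, also lay below the control on all 3 hairpins, by means of -0.22 ± 0.09 and -0.34 ± 0.22. Cdh6, or K-cadherin, was on both sides of it, with a mean difference of 0.13 ± 0.20. Cdh6 and Cdh8 each had a further probe that was not above background on any array.

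A pair of type II cadherins of the nervous system differed on single hairpins. Cdh22 had signals of 82.3 and 130 on hairpins 1 and 2 and 11.49 on hairpin 3, where it was not above background, against 92.4 on the control array. It was thus at least 6.03-fold lower on hairpin 3, while hairpins 1 and 2 lay on either side of the control. Cdh18 had signals of 17.8, 48.7 and 159 on hairpins 1 to 3, against 18.8 on the control array. It was above background on hairpins 2 and 3 only, at least 2.57-fold and at least 8.44-fold higher than the control. Cdh5, the VE-cadherin of endothelium, was not above background on any array, with signals of 5.73, 10.7 and 3.76 on hairpins 1 to 3, against 4.92 on the control array.

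Among the cadherins outside both classical types, Cdh13 and Cdh26 were measured on all 4 arrays. Cdh13, the T-cadherin, is held in the membrane by a lipid anchor and binds adiponectin. It had signals of 7452, 5619 and 10605 on hairpins 1 to 3, against 7749 on the control array. The control lay between the hairpins, with hairpin 3 highest and hairpin 2 lowest, and the mean difference was 0.03 ± 0.46 (limma adjusted p 0.998). Cdh26 had signals of 293, 455 and 362 on hairpins 1 to 3, against 461 on the control array, so that hairpin 2 was level with the control after scaling and the mean difference was -0.29 ± 0.28. Cdh17, the intestinal LI-cadherin, was above background on hairpin 3 and on the control array only, with signals of 57.2 on hairpin 3 and 37.2 on the control array. Cdh16, a kidney cadherin, was on none.

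Of the tip link cadherins, which join the stereocilia of hair cells, Cdh23 was not above background on any array. Pcdh15 had signals of 26.9, 63.8 and 16.2 on hairpins 1 to 3, against 23.7 on the control array. The call was met on hairpins 1 and 2 only, and by 1 of its 6 probes. Of 4 cadherin-related genes, Cdhr1 and Cdhr2 were measured on all 4 arrays. Cdhr2, a protein of the links between microvilli in the gut, had signals of 782, 822 and 742 on hairpins 1 to 3, against 695 on the control array. The 3 hairpins lay close together and above the control, with a mean difference of 0.22 ± 0.08 and a limma adjusted p of 0.964. Cdhr1, a photoreceptor cadherin singled out after its values were seen, had signals of 50, 76.4 and 72.9 on hairpins 1 to 3, against 116 on the control array. Its mean difference was -0.78 ± 0.30 (limma adjusted p 0.964), and hairpin 1 was the lowest array.

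Fat and Dachsous cadherins bind each other across cell borders, Fat4 as receptor of the ligand Dchs1, and act on planar polarity and on Hippo signalling. Fat1, a giant cadherin of cell migration and growth control, had signals of 13504, 7638 and 12377 on hairpins 1 to 3, against 7972 on the control array. Hairpins 1 and 3 stood well above the control and hairpin 2 stood level with it, for differences of 0.85, -0.04 and 0.66. The mean was 0.49 ± 0.47 with a limma adjusted p of 0.964, and a further Fat1 probe was not above background on any array.

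Dchs1 had signals of 222, 420 and 46.2 on hairpins 1 to 3, against 349 on the control array. Hairpin 3 was 7.39-fold below the control and hairpin 2 was above it, so the groups overlapped, and the mean difference of -1.05 ± 1.65 was smaller than its spread. Fat4 had signals of 55.3, 17.3 and 34.2 on hairpins 1 to 3, against 67.8 on the control array. It was not above background on hairpin 2, where it was at least 3.5-fold lower, and its mean difference was -1.04 ± 0.87 (limma adjusted p 0.964). The ligand was thus lowest on hairpin 3 and the receptor on hairpin 2. Fat3 was above background on hairpin 2 only, with signals of 18.6, 51.9 and 12.8 on hairpins 1 to 3, against 11.6 on the control array, which put hairpin 2 at least 2.74-fold higher. Fat2 lay above the control on all 3 hairpins, by a mean of 0.28 ± 0.20.

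Celsr proteins are core components of planar cell polarity. Celsr1 had signals of 55.7, 38.8 and 24.7 on hairpins 1 to 3, against 50 on the control array. Hairpin 1 was above the control and both others were below it, with a mean difference of -0.36 ± 0.62. Celsr2 had signals of 34.4, 40.1 and 35.8 on hairpins 1 to 3, against 46.4 on the control array, a mean difference of -0.29 ± 0.09. Celsr3 and a further Celsr2 probe were not above background on any array.

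**Figure D2:**
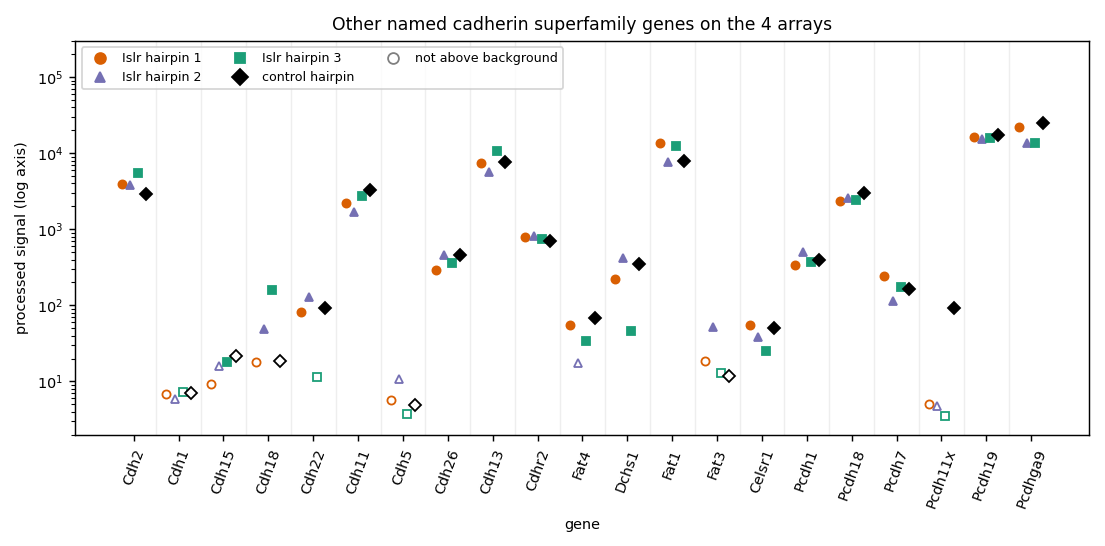
Processed signal (y axis, log scale, no unit) of the named superfamily genes outside the beta cluster (x axis) on hairpin 1 (orange circles), hairpin 2 (violet triangles), hairpin 3 (green squares) and the control array (black diamonds); open symbols are not above background. Cdh2 has all 3 hairpins above the control and Cdh11 all 3 below it, Dchs1 is low on hairpin 3 alone, and Pcdh11x is above background on the control array alone; heights of different genes come from different probes and are not comparable.

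Non-clustered protocadherins counted 11 genes, and 4 of them were measured on all 4 arrays. Pcdh19, a protocadherin of cell sorting in the developing brain, had signals of 16322, 15245 and 15620 on hairpins 1 to 3, against 17324 on the control array. After scaling hairpin 1 was level with the control and hairpins 2 and 3 lay slightly below it, for a mean difference of -0.09 ± 0.09 (limma adjusted p 0.980). Pcdh18 had signals of 2327, 2537 and 2422 on hairpins 1 to 3, against 2967 on the control array. All 3 hairpins lay below the control and within a narrow range of each other, at -0.24 ± 0.03, with a limma adjusted p of 0.964.

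Pcdh1, an epithelial protocadherin of the airway, had signals of 334, 495 and 369 on hairpins 1 to 3, against 397 on the control array. Its groups overlapped (0.04 ± 0.27), and a further Pcdh1 probe was not above background on any array. Pcdh7 had signals of 239, 113 and 174 on hairpins 1 to 3, against 164 on the control array, with a mean difference of 0.08 ± 0.57. All 3 Pcdh7 probes had hairpins 1 and 3 above the control and hairpin 2 below it. The other probes had differences of 1.04, -0.65 and 0.22, with hairpin 2 not above background, and of 0.83, -0.89 and 0.54.

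Pcdh11x, an X-linked protocadherin best known from the brain, had signals of 5.12, 4.69 and 3.55 on hairpins 1 to 3, against 92.7 on the control array. It was above background on the control array only, so that its fold is a bound, at least 4.95-fold lower in Islr knockdown. The limma adjusted p was 0.0323. A second Pcdh11x probe was not above background on any of the 4 arrays, with signals of 4.67, 4.49 and 3.37 on hairpins 1 to 3, against 4.41 on the control array. The call rests on 1 probe and on the 1 control array, and it was lost with normexp background correction and quantile normalization together (adjusted p 0.546, difference -1.12) and whenever a hairpin was left out (adjusted p between 0.0730 and 0.142). Pcdh8, Pcdh9, Pcdh10, Pcdh12, Pcdh17 and Pcdh20 were not above background on any array.

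Of the members with a promoter examined here, from RefSeq on build GRCm38.p6, 5 were measured on all 4 arrays and lay below the control on all 3 hairpins: Cdh8, Cdh12, Cdhr1, Celsr2 and Pcdh18. The bases before the annotated start site of 3 of them are shown because they differ in one feature, the E-box CACCTG, which reads as CAGGTG on the opposite strand, the sequence bound by the Snail and Zeb repressors of Cdh1. Capitals mark each match on either strand. Cdhr1 has 1 match, Celsr2 has 2 and Pcdh18 has none. Cdh8 and Cdh12, which are not shown, also have none. The windows are 250 bases long, 5′ to 3′, and lie on the minus strand at chr14:37098348-37098597, chr3:108415580-108415829 and chr3:49757317-49757566. Positions are on GRCm38.p6, not on the mm9 build of the array design.
Cdhr1: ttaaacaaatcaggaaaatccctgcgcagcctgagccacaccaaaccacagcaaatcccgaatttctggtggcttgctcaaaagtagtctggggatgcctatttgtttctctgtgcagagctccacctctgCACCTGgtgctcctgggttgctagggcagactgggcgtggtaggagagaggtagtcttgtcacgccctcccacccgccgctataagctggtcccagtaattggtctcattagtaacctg
Celsr2: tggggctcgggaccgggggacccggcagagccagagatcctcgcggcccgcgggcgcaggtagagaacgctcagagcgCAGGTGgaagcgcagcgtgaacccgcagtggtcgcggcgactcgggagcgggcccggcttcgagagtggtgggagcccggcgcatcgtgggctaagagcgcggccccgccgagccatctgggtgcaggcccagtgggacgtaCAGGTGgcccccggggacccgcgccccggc
Pcdh18: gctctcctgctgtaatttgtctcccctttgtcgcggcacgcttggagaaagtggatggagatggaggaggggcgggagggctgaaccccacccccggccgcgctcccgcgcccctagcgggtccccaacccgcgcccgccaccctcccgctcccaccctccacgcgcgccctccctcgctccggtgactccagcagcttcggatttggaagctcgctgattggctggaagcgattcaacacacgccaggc

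The first match starts 119 bases before the start site of Cdhr1, and those of Celsr2 start 172 and 30 bases before its start site. In windows of the same length, 6 of the 35 examined promoters of superfamily genes (17.1%, in 5 of 32 genes) held the E-box, against 17.2% of all 32851 RefSeq promoters. Members on chromosome 18 were not examined. A match is a description of these letters and not a binding site.

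The clustered protocadherins lie side by side on chromosome 18 in the order alpha, beta and gamma. An alpha or gamma gene gives a variable first exon that is joined to constant exons shared by its cluster, whereas each beta gene is a single exon. Where in a transcript a probe lies was not examined here, so a probe named for 1 alpha or gamma gene may read others of its cluster. Beta genes resemble each other in sequence, so a beta probe may also pick up the RNA of a neighbour.

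Of the alpha cluster, 7 of 14 genes had a probe and 2 were measured on all 4 arrays. Pcdha8 lay below the control on all 3 hairpins, with signals of 52.8, 48.8 and 53.0 on hairpins 1 to 3, against 66.4 on the control array (-0.32 ± 0.09). Pcdha9 lay above it on all 3, with signals of 29.0, 37.7 and 36.2 on hairpins 1 to 3, against 24.1 on the control array (0.55 ± 0.17). These 2 alpha genes thus lay on opposite sides of the control by 1 probe each, neither past the test (limma adjusted p 0.964 each). The other Pcdha8 probe was not above background on any array.

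All 22 beta genes had 1 probe each. Of these, 14 were above background on at least 1 array, and all 14 entered the test. On all 4 arrays 11 were above background, namely Pcdhb4, 6, 7, 12, 15, 16, 17, 18, 20, 21 and 22. All 11 lay below the control on all 3 hairpins (background 22.7%). Hairpin 1 lay nearest the control, with a median difference of -0.30 over the 11 genes, and hairpins 2 and 3 had medians of -1.0 and -1.05. Their mean differences ran from -1.11 to -0.33, with a median of -0.82, against 0.02 for all genes measured on all 4 arrays. None passed limma's test, where the lowest adjusted p was 0.953, and 4 of the 11 had an unadjusted p under 0.05 (Pcdhb7, Pcdhb17, Pcdhb18 and Pcdhb20).

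Pcdhb21 had signals of 1326, 775 and 411 on hairpins 1 to 3, against 1674 on the control array. Hairpin 1 lay just below the control and hairpin 3 was 3.99-fold below it, with a mean difference of -1.11 ± 0.88 (limma adjusted p 0.964). Pcdhb17 had signals of 1020, 813 and 767 on hairpins 1 to 3, against 1468 on the control array. All 3 hairpins lay below the control, hairpin 1 nearest to it, and the mean difference was -0.72 ± 0.26 (limma adjusted p 0.964).

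Pcdhb16 had signals of 368, 227 and 180 on hairpins 1 to 3, against 531 on the control array, a mean difference of -1.06 ± 0.56. Pcdhb6 and Pcdhb22, singled out after their values were seen, had the same order. Pcdhb6 had signals of 310, 197 and 143 on hairpins 1 to 3, against 401 on the control array, and Pcdhb22 had signals of 284, 162 and 100 on hairpins 1 to 3, against 367 on the control array. In all of these hairpin 1 stood nearest to the control and hairpin 3 farthest below it.

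That order, control, hairpin 1, hairpin 2, hairpin 3 from high to low, held for 8 of the 11 genes, and hairpin 3 was the lowest array in 9. The Islr signal was highest of the 3 hairpins on hairpin 2 and was not above background on hairpins 1 and 3. A relation between the order of the beta genes and the Islr signal was not tested. A comparison of hairpins with each other, added after the values were seen, does not use the control array. Hairpin 3 lay below hairpin 1 in 11 of 11 genes, by a median of -0.61 (range -1.75 to -0.28), where 42.1% of all genes measured on all 4 arrays lay below and their median was 0.06. Hairpin 2 lay below hairpin 1 in 10 of 11 (median -0.58), against 46.4% of all genes (median 0.03). Hairpin 3 lay below hairpin 2 in 9 of 11 (median -0.22), against 46.5% of all genes (median 0.03).

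**Figure D3:**
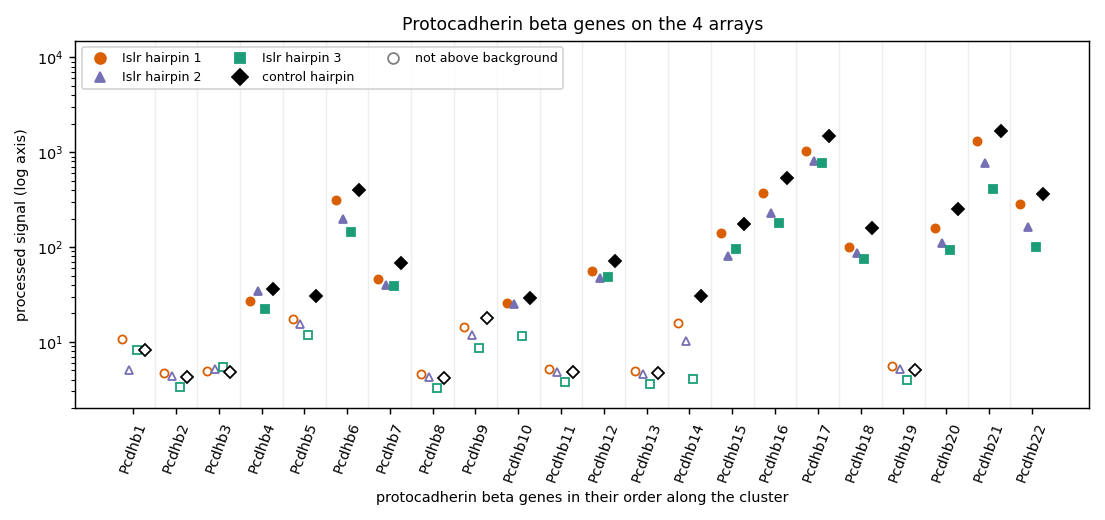
Processed signal (y axis, log scale, no unit) of the 22 protocadherin beta genes in their order along the cluster (x axis) on hairpin 1 (orange circles), hairpin 2 (violet triangles), hairpin 3 (green squares) and the control array (black diamonds). Open symbols are not above background; in all 11 genes with 4 filled symbols the control is the highest point, and in 9 of them hairpin 3 is the lowest.

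The other 3 tested beta genes were not measured on every array. Pcdhb5 read 17.4, 15.3 and 11.8 on hairpins 1 to 3 and Pcdhb14 read 15.9, 10.2 and 4.08, against 30.7 for each on the control array. Both were above background on the control array only, so each was at least 1.64-fold lower in Islr knockdown. Pcdhb10 had signals of 25.9, 25.3 and 11.6 on hairpins 1 to 3, against 29.0 on the control array, and was not above background on hairpin 3. The remaining 8 beta genes (Pcdhb1, 2, 3, 8, 9, 11, 13 and 19) were not above background on any array. Pcdhb1, 2 and 3 lie at the start of the cluster and the other 5 among the measured genes.

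In whole cultures, fewer cells that make a transcript and less of it per cell cannot be told apart. Neurons also make clustered protocadherins, and of 5 neuron markers 2 were above background, Snap25 and Tubb3. Summed signals over the list were 6396, 6167 and 4276 on hairpins 1 to 3, against 7255 on the control array. The 2 genes differed in direction. Snap25 read 6270, 5853 and 3814 on hairpins 1 to 3, against 7134 on the control array, whereas Tubb3 read 95.9, 287 and 429 on hairpins 1 to 3, against 107 on the control array. Syt1, Rbfox3 and Elavl3 were not above background on any array. Their part in the beta cluster's result was not tested.

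Of the gamma cluster, 6 of 22 genes had a probe and 3 were measured on all 4 arrays. Pcdhga9 had signals of 22345, 13676 and 13736 on hairpins 1 to 3, against 24896 on the control array. Hairpin 1 was level with the control and hairpins 2 and 3 lay together below both, with differences of -0.06, -0.84 and -0.83. Its second, dimmer probe read 660, 413 and 400 on hairpins 1 to 3, against 735 on the control array, in the same pattern, and the mean of the brighter probe was -0.58 ± 0.45 (limma adjusted p 0.964). Pcdhga1 had signals of 54.6, 29.1 and 28.0 on hairpins 1 to 3, against 45.1 on the control array, again with hairpins 2 and 3 low. Pcdhgb1 lay below the control on all 3 hairpins, at -0.47 ± 0.19.

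The genes on either side of the clusters were looked up by gene order after the beta values were seen. Of 12 neighbours 11 were measured, among them Taf7, a general transcription factor subunit gene that lies within the array of clusters. On all 3 hairpins 4 of these 11 lay below the control, and their median was -0.08. Of 305 other tested genes of chromosome 18, 30.5% lay below the control on all 3 hairpins, with a median of -0.04. Taf7 itself was on both sides of the control (-0.13 ± 0.22). Dnd1, the gene of a germ cell RNA-binding protein ahead of the alpha cluster, was the neighbour farthest below, with signals of 74.9, 99.9 and 60.7 on hairpins 1 to 3, against 224 on the control array (-1.50 ± 0.36, limma adjusted p 0.585).

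**Figure D4:**
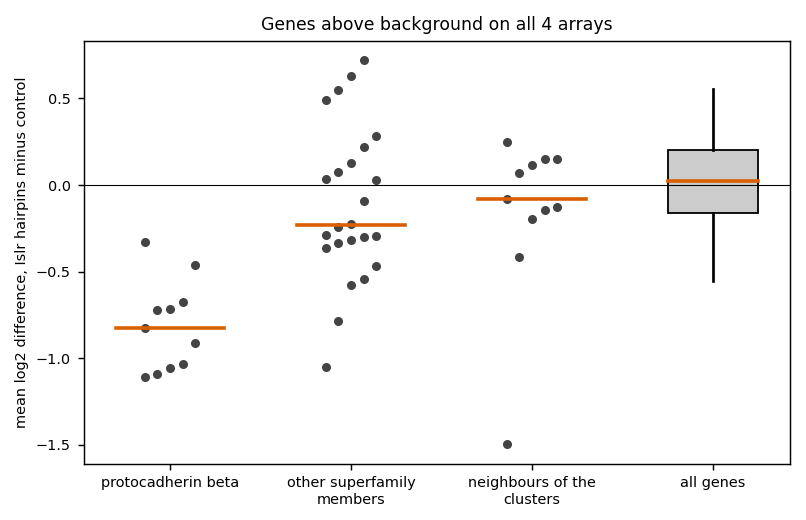
Mean log2 difference over the 3 hairpins (y axis, Islr hairpins minus control) of genes above background on all 4 arrays, for 11 protocadherin beta genes, 24 other superfamily genes, 11 neighbours of the clusters and all genes (x axis). Points are genes and orange bars medians; for all 12716 genes the box spans the 25th to 75th percentile and the line the 5th to 95th, and the beta genes lie at or below -0.33 with a median of -0.82.

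Partner genes of the superfamily were counted in 12 lists, and 0 of their tested genes passed limma's test in any list, in either direction (background 0.346% lower and 0.0% higher). At an unadjusted p under 0.05, 4 of the 133 tested partner genes were higher (Fzd6, Pkp2, Pkp4 and Pvr) and 3 were lower (Fuz, Lix1 and Prickle3), where 1.52% of all tested genes were higher and 3.31% lower. Of 17 catenins and other partners of classical cadherins, 12 were tested, with 3 above the control on all 3 hairpins (background 27.6%) and 2 below (background 24.6%). Pkp4, a plakophilin-related armadillo protein, had signals of 446, 523 and 498 on hairpins 1 to 3, against 332 on the control array (0.61 ± 0.08). Afdn, the afadin that ties nectins to actin, was at 0.49 ± 0.12. Of the 17 tested nectins and junction scaffolds 5 lay above the control on all 3 hairpins and 4 below, and the nectin-like receptor gene Pvr was at 0.93 ± 0.37.

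In the list of 13 desmosome genes 9 were not above background on any array, namely Dsp and the 8 Dsc and Dsg genes, the desmosomal cadherins. Their plaque protein gene Pkp2 had signals of 1599, 1938 and 2282 on hairpins 1 to 3, against 1018 on the control array, and all 3 hairpins exceeded the control (0.96 ± 0.22, limma adjusted p 0.757). Of 12 tested shedding and turnover genes, 10 were on both sides of the control, and Mmp14, a membrane metalloproteinase, was at -0.72 ± 0.51. Both measured calsyntenins, Clstn1 and Clstn3, were on both sides of it.

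Of the 18 tested genes of Fat, Dachsous and Hippo signalling, 7 lay below the control on all 3 hairpins (background 24.6%) and 2 above (background 27.6%). Stk3, a Hippo kinase, had signals of 1609, 1820 and 640 on hairpins 1 to 3, against 2203 on the control array (-0.79 ± 0.84), and was low mainly on hairpin 3. Lix1, whose fly counterpart binds Fat and Dachsous, was above background on the control array alone, with signals of 8.94, 4.61 and 4.47 on hairpins 1 to 3, against 49.5 on the control array. It was at least 2.64-fold lower in Islr knockdown (limma adjusted p 0.304). Of the 18 tested planar polarity genes 7 lay below the control on all 3 hairpins (background 24.6%) and 4 above (background 27.6%). Fuz and Prickle3 were at -0.64 ± 0.20 and -0.60 ± 0.14, and Prickle1 was at 0.53 ± 0.25. Fzd6, a Frizzled receptor gene, was above background on the 3 hairpins only, at 27, 23.1 and 23.5, against 14.7 on the control array, and was at least 1.31-fold higher (limma adjusted p 0.847).

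Of the 13 tested transcription factors that act on Cdh1, 1 lay above the control on all 3 hairpins (background 27.6%) and 4 below (background 24.6%). Zeb1, a repressor of Cdh1, had signals of 3927, 3081 and 2697 on hairpins 1 to 3, against 4569 on the control array (-0.47 ± 0.31), and Tcf4 was at -0.68 ± 0.39. Twist2 was at 0.48 ± 0.55, with hairpin 2 below the control. The list of promoter choice in the protocadherin clusters covers CTCF, cohesin and DNA methylation. Of its 17 genes 8 lay above the control on all 3 hairpins (background 27.6%) and 2 below (background 24.6%). Dnmt1, the maintenance DNA methyltransferase, had signals of 646, 906 and 667 on hairpins 1 to 3, against 545 on the control array (0.47 ± 0.25). The cohesin subunit gene Rad21 was at 0.30 ± 0.09, the cohesin release factor gene Wapl at 0.33 ± 0.07, and Dnmt3a at -0.31 ± 0.32.

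Of 15 tested protocadherin signalling genes 5 lay above the control on all 3 hairpins (background 27.6%) and 2 below (background 24.6%). Ptk2, the focal adhesion kinase gene, was at 0.31 ± 0.23. Of 5 tested hair cell partners of the tip link 1 lay above the control on all 3 hairpins, Ush1g at 0.34 ± 0.09. The brush border list had 1 tested gene, Calml4, with signals of 216, 274 and 434 on hairpins 1 to 3, against 582 on the control array (-0.93 ± 0.48). Pvr and Calml4 each had a limma adjusted p of 0.964.

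The cell type was checked against markers: 10 of 10 MSC markers were above background on at least 1 array. Of these, 9 were above background on all 4 arrays. On all 3 hairpins 4 of the 9 lay above the control (background 28.8%) and 3 below (background 22.7%), with 2 on both sides. Pdgfra was at -0.81 ± 0.61 and Thy1 at 1.12 ± 0.49, and none of the 9 passed limma's test. Macrophage and blood markers were above background for 4 of 8 (Cd68, Itgam, Csf1r and Cd14), with sums of 11812, 10313 and 7813 on hairpins 1 to 3, against 11794 on the control array. Ptprc, Adgre1, Lyz2 and Tyrobp were on none. Endothelial markers were above background for 4 of 8, with Cdh5, Tek, Emcn and Tie1 on none. Pecam1 and Kdr were called on all 4 arrays. Kdr read 3303, 3251 and 3357 on hairpins 1 to 3, against 3532 on the control array. Vwf was called on hairpins 1 and 3, at 55.9 and 188, where the control array read 21.5 without a call. Erg was called on hairpin 1 only. Of 6 muscle markers Cdh15 alone was called. The part of these markers in the superfamily's results was not tested.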

How the data were processed

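The 4 one-colour arrays shared 1 slide and, per the file headers, were read by the authors in Agilent Feature Extraction 11.5.1.1 (mm9 design). The deposited intensity used is the processed signal, background-subtracted by that software. Repeated features were averaged as log2 values, and each array was scaled to its 75th percentile. Accessions were matched to a RefSeq table, which named 28026 of 55681 probes and left 27655 unnamed and unused. Probes called above background with the control hairpin or with each Islr hairpin were kept (17843 probes, 13567 genes), and a gene's brightest probe stood for it.

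The test was limma 3.58.1 (R 4.3.3; lmFit, eBayes, two-sided, Benjamini-Hochberg over all tested genes). The lone control is assumed to vary like the hairpins. The fit was tested on simulated data.

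Members and lists were chosen with earlier results of these data known. Genes named with values were those measured on all 4 arrays with a signal at or above the 75th percentile on any array, those at least 1.5-fold from the control one way on all 3 hairpins, the member farthest from the others on each array, 9 focal genes, and up to 4 partners per list, by size of mean difference among those measured on all 4 arrays. Other genes given with values were chosen after their values were seen. The result of 1 marker list is not reported here.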

Additional observations from a re-analysis of the deposited data

How the results depend on the processing

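No paired analysis was possible because the control has 1 array. The 13 alternatives were quantile normalization, median centring, the series table values, normexp background correction with quantile normalization, 3 other filters on dim probes, flagged features left out, the mean over probes, an intensity trend and each of 3 hairpins left out. Looser thresholds were also tried. Genes called lower by limma numbered 47, but 75 with quantile normalization, 81 at an adjusted p under 0.10, and 0 with normexp plus quantile normalization, with no filter, with the filter on all 4 arrays, with the filter on at least 1 array, with an intensity trend and with any hairpin left out (range 0 to 0). Genes called higher numbered 2 at 0.10. The 1 member called lower, Pcdh11x, became 0 with normexp plus quantile normalization, with no filter, with both other filters, with the trend and with any hairpin left out (range 0 to 0). Members at least 2-fold lower on all hairpins numbered 3 by a 1.5-fold rule, 2 with no filter, 0 with the filter on all 4 arrays and between 1 and 7 with a hairpin left out. The 7 came without hairpin 1 (Pcdh11x and 6 beta genes), where 1 member was also higher, against 0 otherwise (range 0 to 1). The median of tested members, -0.41, was -0.19 with normexp plus quantile normalization and -0.085 with no filter. With a hairpin left out the mean difference ranged from -0.20 to 0.37 for Pcdh7 (negative without hairpin 1), from -0.12 to 0.13 for Pcdh1 (negative without hairpin 2), from -0.20 to 0.26 for Cdh13 (negative without hairpin 3) and from -1.53 to 0.22 for Cdh22 (positive without hairpin 3). The causes were not tested. The 11 beta genes stayed below the control on all hairpins in all 13 alternatives, with medians from -0.96 to -0.57, an alternative check added after the data were seen. Many of these alternatives could not change that count. The filters, the trend, the mean over probes (1 per beta gene) and the series table values left the differences as they were. Leaving out a hairpin could not undo a gene lower on all hairpins. Quantile normalization, median centring, normexp correction and leaving out flagged features could change the count. Over 21 named members, 257 results kept direction and side of the threshold.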
